A study of Arabidopsis thaliana with 12 samples.

Results

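The fruit of lhp1-6 plants was compared with the fruit of Col-0 plants of Arabidopsis thaliana, using the 6 fruit libraries of a series of 12 and all 18822 of 26925 listed genes that reached at least 1 TPM in at least 3 of those 6. TPM, the length-corrected share of a transcript in its library, is the unit of every level given here. Col-0 is the wild-type accession, and lhp1-6 carries a mutant allele of LIKE HETEROCHROMATIN PROTEIN 1 (LHP1) and is named as a single allele, so that allele and gene cannot be told apart. Each genotype had 3 fruit libraries, and each library was made from 3 to 5 siliques pooled after the seeds had been dissected out by hand. Both genotypes were kept at 22 °C up to bolting, after which days were at 16 °C and nights at 14 °C, and siliques were taken at the bent-cotyledon stage of the embryo, at 14 to 15 DAP in the labels' count, whose day 0 is petal emergence, in both genotypes. Whether the pools are from different plants is not stated, and the p-values refer to the variation among pools, which may be technical. Fruit here is the silique after its seeds were taken out. The seed libraries of the same siliques, 3 per genotype, entered the comparison of the fruit with the seed effect, the estimate of seed RNA, the fit of all 12 libraries and the choice of the genes named by size.

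LHP1 is a chromodomain protein that binds histone H3 trimethylated at lysine 27, the mark laid down by Polycomb repressive complex 2, and is known as a factor that keeps developmental genes silent outside their place and time. The silique wall is a photosynthetic organ with a waxy cuticle, takes up and passes on nitrogen, phosphorus and sugars to the seeds, and stores glucosinolates, the sulfur-rich defence compounds of the cabbage family. Those roles set the order of the results below.

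For LHP1 itself (AT5G17690, chromosome 5) the Col-0 replicates 1 to 3 gave 15.3, 17.5 and 17.97 TPM and those of lhp1-6 gave 0.817, 0.858 and 0.699 TPM. Every library labelled lhp1-6 lay below every library labelled Col-0, a change of -3.32, SE 0.12, adjusted p = 0.000616 on the log2(TPM + 1) scale, which is the scale of every change given here as lhp1-6 minus Col-0. Of its neighbours on the chromosome, 1 was also called lower, by less. AT5G17680, annotated as a TIR-NBS-LRR resistance gene, stood at 1.63, 1.91 and 2.55 TPM in Col-0 and 0.542, 0.625 and 0.458 TPM in lhp1-6 (-0.97, SE 0.17, adjusted p = 0.0355). AT5G17700, a MATE efflux gene, stood at 14.6, 3.59 and 3.62 TPM in Col-0 and 7.83, 12.5 and 10.96 TPM in lhp1-6, with overlapping groups and an adjusted p = 0.468.

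The 3 Col-0 fruit libraries were less alike than the 3 of lhp1-6, with a mean correlation to the other replicates of 0.950 to 0.969 against 0.983 to 0.986. Seed RNA was estimated to make up 23.3%, 3.71% and 5.64% of the Col-0 fruit libraries and 8.30%, 11.1% and 9.13% of the lhp1-6 ones, so Col-0 fruit replicate 1 stood apart. On the first principal component of the 6 libraries, with 52.9% of the variance, it lay between the other Col-0 libraries and those of lhp1-6. It was the extreme library of the second component, with 25.8%. Col-0 fruit replicate 2 stood apart in another way, as a list of 13 wound and touch genes summed to 1246 TPM there, against 285 and 539 TPM in the other Col-0 libraries and 249 to 320.2 TPM in lhp1-6. The fruit identity genes of the label check were present in every library, at 895 to 1116 TPM summed in Col-0 and 1199 to 1311 TPM in lhp1-6. In bulk tissue, fewer cells of a type and less RNA per cell cannot be told apart.

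**Figure D1:**
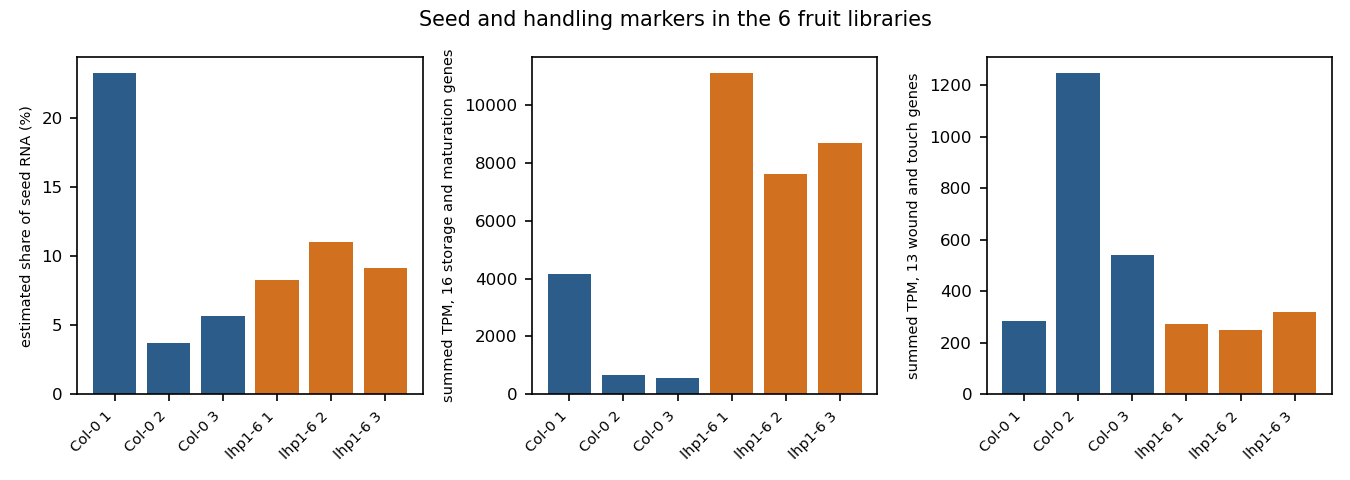
Estimated share of seed RNA (percent, left), summed TPM of 16 storage and maturation genes (middle) and summed TPM of 13 wound and touch genes (right) in each of the 6 fruit libraries, 1 bar per library, Col-0 in blue and lhp1-6 in orange. Col-0 replicate 1 holds the highest seed share at 23.3%, and Col-0 replicate 2 the highest wound and touch sum at 1246 TPM.

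Just inside the expression filter, 444 genes reached 1 TPM in exactly 3 fruit libraries, with a median level of 1.15 TPM, and just outside it 406 reached it in 2, with a median of 0.903 TPM. Of the 18822 genes, 364 were called higher (1.93%) and 521 lower (2.77%) in lhp1-6 fruit at an adjusted p under 0.05, together 4.70% of those tested. This share is the one to set beside the calls counted in each list below. Changes of at least 1 log2 unit were seen for 221 of the genes called higher and 222 of those called lower. In none of the 885 did the 3 values of one genotype overlap those of the other, where 27.7% of all genes tested had no overlap. The median change over all genes was -0.02, and the medians of the called genes were 1.14 and -0.95. The genes called higher gained 26708 TPM in sum and those called lower lost 11993 TPM, and 48.2% of the gain came from the 10 genes with the largest gains. Storage protein genes of the seed, treated last, held 14.5% of it.

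How many genes were called rested on single libraries. Without Col-0 replicate 1, the library high in seed RNA, 1231 genes were higher and 1489 lower, and 843 of the 885 calls recurred, the other 42 falling under the expression filter. Leaving out another library left 140 and 63 genes (Col-0 replicate 2), 88 and 54 (Col-0 replicate 3), 75 and 86 (lhp1-6 replicate 1), 36 and 42 (lhp1-6 replicate 2) or 6 and 1 (lhp1-6 replicate 3). Of the 885 genes, 792 could be tested in all of these 6 fits, and only 5 were called in all 6. All 792 kept their sign in each, which was fixed in advance because no called gene overlapped between genotypes. A fit that took its spread from all 12 libraries called 1167 genes higher (6.20%) and 1875 lower (9.96%), 16.2% in all, among them 844 of the 885.

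**Figure D2:**
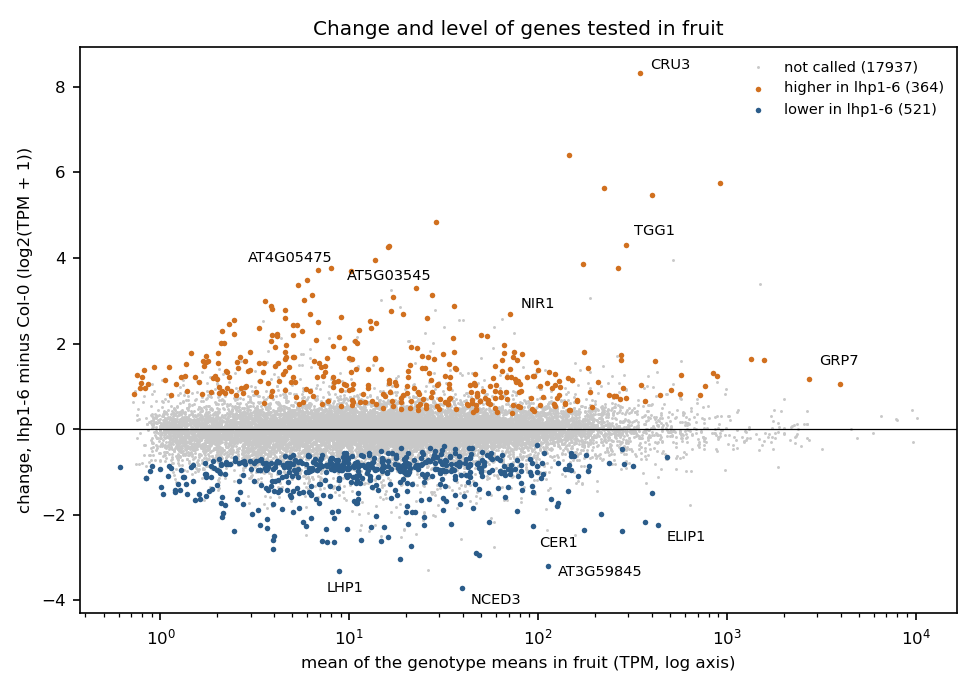
Change in fruit (lhp1-6 minus Col-0, log2(TPM + 1), vertical axis) against the mean of the genotype means (TPM, log axis) for 18822 genes, 1 point each, with the 364 genes called higher in orange, the 521 called lower in blue and the rest in grey. Calls are found at every level of expression, the storage gene CRU3 changes most at 8.33, and GRP7 is the called gene with the largest gain in TPM.

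Genes of both steps of nitrate reduction rose in lhp1-6 fruit, as did NRT2.1, a gene of nitrate uptake at a low level. Plants reduce nitrate first to nitrite and then to ammonium, and the genes of both steps are switched on by nitrate. NIR1 (AT2G15620), nitrite reductase, stood at 27.6, 15.4 and 13.6 TPM in Col-0 and 92.3, 150.1 and 128 TPM in lhp1-6, 6.55-fold higher in the mean (2.69, SE 0.29, adjusted p = 0.01). NIA2 (AT1G37130), the main nitrate reductase, went from 38.2 ± 8.69 to 116 ± 3.84 TPM (SD, n = 3 in each group), with single values of 44.9, 41.4 and 28.4 TPM and 112, 118 and 119 TPM (1.61, SE 0.17, adjusted p = 0.00936). For both enzymes every lhp1-6 library lay above every Col-0 library. NRT2.1 (AT1G08090), a high-affinity nitrate transporter best known from roots, was near the floor in Col-0 at 0.195, 0.0286 and 0.0354 TPM and reached 1.82, 3.69 and 2.92 TPM in lhp1-6 (1.78, SE 0.23, adjusted p = 0.0157). LBD39 (AT4G37540) and LBD38 (AT3G49940), nitrate-induced LOB-domain repressors of nitrogen genes and of anthocyanin synthesis, rose as well. LBD39 stood at 0.295, 0.2598 and 0.375 TPM in Col-0 and 3.89, 13.6 and 15.9 TPM in lhp1-6, the lowest of these in replicate 1 (3.03, SE 0.46, adjusted p = 0.0237). LBD38 stood at 2.16, 1.398 and 2.06 TPM and 6.53, 9.69 and 8.56 TPM (1.68, SE 0.19, adjusted p = 0.0108).

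Of the 16 nitrogen assimilation genes tested, 3 were called higher and none lower, and the list's median change of -0.10 stood beside -0.02 for all genes. The cytosolic glutamine synthetase gene GLN1-4 (AT5G16570), which did not pass, stood at 711, 1124 and 1032 TPM in Col-0 and 490.3, 121 and 347 TPM in lhp1-6 (-1.77, SE 0.51, adjusted p = 0.111). GLN1-3 (AT3G17820) also missed the threshold, at 96.2, 89.6 and 91.2 TPM against 156, 155 and 117 TPM (0.61, SE 0.13, adjusted p = 0.0538). NRT1.1 (AT1G12110), the dual-affinity nitrate transporter and sensor, stood at 23.03, 13.7 and 9.93 TPM and 8.71, 7.61 and 9.901 TPM with overlapping groups (adjusted p = 0.227). AGL44 (AT2G14210), a MADS-box gene known in roots for the growth response to nitrate, rose from 6.15 ± 1.23 to 21.1 ± 2.91 TPM (1.63, SE 0.16, adjusted p = 0.00905). AT1G68670, annotated only as a myb-like transcription factor, was among the 15 largest rises, at 5.52, 3.32 and 5.24 TPM in Col-0 and 33.04, 54.9 and 62.6 TPM in lhp1-6 (3.14, SE 0.27, adjusted p = 0.00743). NIR1, NIA2, NRT2.1 and LBD39 were called without Col-0 replicate 1 (adjusted p of at most 0.0179), and in 10 of the 18 fits with 1 library left out in which they could be tested. Without lhp1-6 replicate 3, 2 of the 4 could be tested and neither was called (adjusted p = 0.0637 and 0.0667). NRT2.1 and LBD39, under 1 TPM in every Col-0 library, passed the expression filter through the lhp1-6 libraries alone. They could not be tested with any lhp1-6 library left out.

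A phosphate transporter gene and a phosphatase gene of the phosphate starvation list rose. Plants short of phosphate make more phosphate transporters and secreted phosphatases, and the ubiquitin-conjugating enzyme PHO2 is known to hold phosphate uptake down. PHT1-4 (AT2G38940), a plasma membrane phosphate transporter, stood at 4.39, 8.94 and 6.198 TPM in Col-0 and 60.7, 31.5 and 42.2 TPM in lhp1-6 (2.60, SE 0.30, adjusted p = 0.0125). The purple acid phosphatase gene PAP17 (AT3G17790) stood at 29.7, 36.6 and 39.9 TPM and 122, 186 and 79.4 TPM (1.76, SE 0.30, adjusted p = 0.0312). AT5G03545, annotated as expressed in response to phosphate starvation, went from 2.01, 3.68 and 2.63 TPM to 40.02, 28.1 and 25.9 TPM, 11.3-fold in the mean (3.098, SE 0.23, adjusted p = 0.00476). In all 3 of these every lhp1-6 library lay above every Col-0 library, though PAP17 varied widely within lhp1-6. PHO2 (AT2G33770) moved the other way, from 173, 222 and 190.4 TPM to 76.5, 67.8 and 37.1 TPM, with the lowest value in lhp1-6 replicate 3 (-1.73, SE 0.27, adjusted p = 0.0256). PHO2 was also called lower in seed in the fit of 12 libraries (-1.01, adjusted p = 0.016). Its difference between fruit and seed was not called (adjusted p = 0.176).

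Of the 8 phosphate genes tested, 2 were called higher and none lower, with a median change of 0.54. SPX1 (AT5G20150), a phosphate-sensing inhibitor of the starvation response that is itself induced by starvation, missed the threshold with a wide spread in lhp1-6, at 26.1, 21.7 and 17.8 TPM against 120.5, 75.4 and 37.97 TPM (1.66, SE 0.40, adjusted p = 0.074). SPX2 (AT2G26660) stood at 30.5, 35.9 and 44.9 TPM and 61.9, 51.4 and 49.4 TPM (0.55, SE 0.16, adjusted p = 0.119). The lipid remodelling genes SQD2 and MGD3 and the xylem loader PHO1 changed by -0.21, -0.25 and 0.12, with adjusted p from 0.491 to 0.833. PHT1-4, PAP17, AT5G03545 and PHO2 were all called without Col-0 replicate 1 (adjusted p of at most 0.0256). Without lhp1-6 replicate 3 none of the 4 was called, with adjusted p from 0.0581 to 0.0739. PHO2 and AT5G03545 were named after their values or sizes were seen, not from the list.

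**Figure D3:**
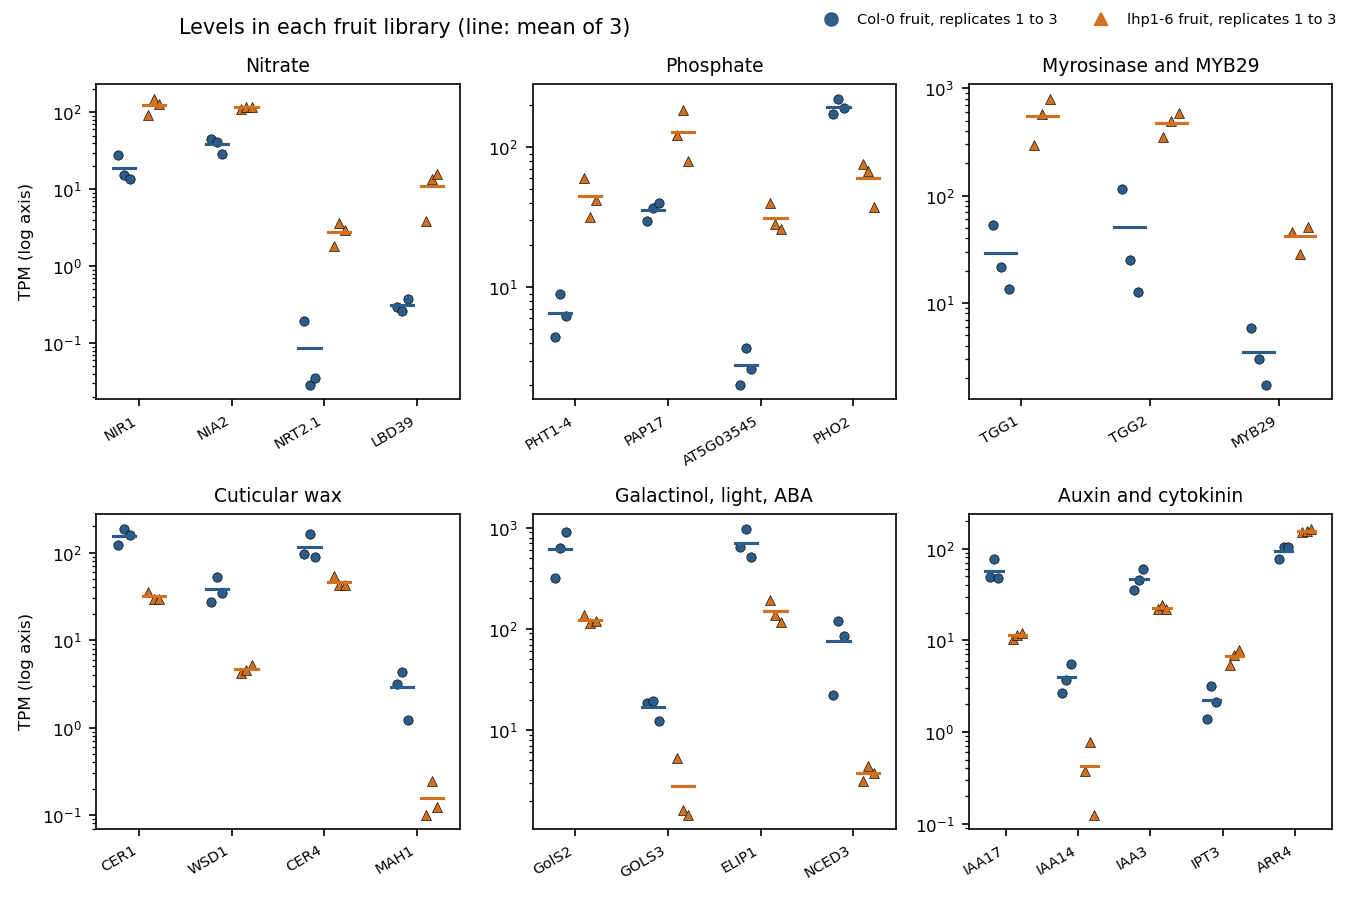
TPM (log axis) of 24 genes in each fruit library, in 6 panels by role, with Col-0 as blue circles, lhp1-6 as orange triangles and a line at the mean of 3. NIR1 lies at 13.6 to 27.6 TPM in Col-0 and 92.3 to 150.1 TPM in lhp1-6, CER1 at 122 to 189 TPM and 29.5 to 35.5 TPM, and in no gene shown do the genotypes overlap.

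Glucosinolate genes rose at synthesis and at breakdown. Myrosinases split glucosinolates into toxic products when tissue is damaged, and MYB29 is an activator of the aliphatic branch, which is built from methionine. TGG1 (AT5G26000), a myrosinase, was the gene with the largest rise among those not more abundant in seed, at 52.8, 21.4 and 13.5 TPM in Col-0 and 293, 570.4 and 798 TPM in lhp1-6 (4.30, SE 0.55, adjusted p = 0.0162). TGG2 (AT5G25980) followed at 116, 24.9 and 12.6 TPM and 349, 493 and 594 TPM (3.76, SE 0.75, adjusted p = 0.0457). In both, Col-0 replicate 1 was the highest Col-0 library and lhp1-6 replicate 1 the lowest mutant one. MYB29 (AT5G07690) went from 3.52 ± 2.09 to 41.9 ± 11.7 TPM, with 5.81, 3.04 and 1.72 TPM against 45.97, 28.6 and 51.00 TPM (3.305, SE 0.37, adjusted p = 0.0108), and its mean was 0 TPM in the seeds of both genotypes.

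Of 23 aliphatic synthesis genes tested, 6 were called higher and none lower, 22 had a positive change, and the median was 0.96. The called genes ran along the pathway, from BCAT4 (AT3G19710), the aminotransferase that starts chain elongation (1.23, SE 0.22, adjusted p = 0.0351), and BAT5 (AT4G12030), the plastid transporter of the elongated keto acids (1.08, SE 0.19, adjusted p = 0.0325), to CYP83A1 (AT4G13770) and GSTF11 (AT3G03190) of core synthesis. CYP83A1 stood at 446, 677 and 365 TPM in Col-0 and 1219, 1107 and 1231 TPM in lhp1-6 (1.303, SE 0.24, adjusted p = 0.0362). The side-chain oxygenase gene FMOGS-OX1 (AT1G65860) stood at 28.2, 50.2 and 27.2 TPM and 119, 95.4 and 121 TPM (1.69, SE 0.25, adjusted p = 0.0211). MAM1 (AT5G23010) and MAM3 (AT5G23020), which lengthen the chain, missed the threshold at 1.09 and 1.25 (adjusted p = 0.0702 and 0.0741). For most of the genes of this pathway Col-0 replicate 2 was the highest Col-0 library.

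Breakdown genes had 3 of 9 members called higher and none lower, namely TGG1, TGG2 and ESM1 (AT3G14210). ESM1, which favours isothiocyanates over nitriles, stood at 2.26, 0.402 and 0.306 TPM against 5.86, 10.6 and 10.7 TPM (2.42, SE 0.40, adjusted p = 0.0298). Its mean was higher in seed, at 6.26 TPM in Col-0 and 42.7 TPM in lhp1-6. The fit of 12 libraries also called it higher in seed (2.58, adjusted p = 0.00516). The difference between its fruit and seed changes was not called (adjusted p = 0.899). Subtracting the estimated seed RNA left a called fruit change of 2.18 (adjusted p = 0.025). The part of seed RNA in its rise was not tested further. ESP (AT1G54040), the epithiospecifier, stood at 6.21, 14.96 and 10.4 TPM and 20.9, 36.1 and 72.3 TPM without passing (adjusted p = 0.0899). The transporter gene GTR1 (AT3G47960), which loads glucosinolates for export to the seed, stood at 57.5, 108 and 81.5 TPM and 48.8, 45.2 and 44.6 TPM (adjusted p = 0.105). None of the 6 tested indole glucosinolate and camalexin genes was called in either direction, and none of the 12 sulfur assimilation genes was, with median changes of 0.01 and 0.40. All 9 called glucosinolate genes were called without Col-0 replicate 1, and none of them without lhp1-6 replicate 3 (adjusted p from 0.0677 to 0.175).

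Of the cuticular wax genes, 4 fell. CER1 (AT1G02205), needed to make the very-long-chain alkanes of the surface, stood at 122, 189 and 160.0 TPM in Col-0 and 35.5, 29.5 and 29.6 TPM in lhp1-6, 4.97-fold lower in the mean (-2.26, SE 0.17, adjusted p = 0.00505). WSD1 (AT5G37300), the wax ester synthase, stood at 27.6, 52.05 and 34.2 TPM and 4.25, 4.52 and 5.21 TPM (-2.74, SE 0.23, adjusted p = 0.00704). CER4 (AT4G33790), the reductase that makes primary alcohols, went from 96.1, 164 and 89.2 TPM to 53.7, 42.4 and 42.5 TPM (-1.27, SE 0.24, adjusted p = 0.0421). MAH1 (AT1G57750), the hydroxylase that turns alkanes into secondary alcohols and ketones, went from 3.13, 4.36 and 1.22 TPM to 0.101, 0.245 and 0.125 TPM (-1.66, SE 0.33, adjusted p = 0.0452). The 4 genes belong to the alkane, alcohol and ester branches, and in each of them every lhp1-6 library lay below every Col-0 library.

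The other 20 of the 24 cuticle genes tested were not called, and the list's median was -0.30. Acyl chain activation by LACS1 (AT2G47240), at -0.50 with adjusted p = 0.0745, and the elongation factor CER2 (AT4G24510), at -0.60 with adjusted p = 0.153, had lower means without passing. LTP2 (AT2G38530), an epidermal lipid transfer protein gene, stood at 65.02, 12.9 and 4.63 TPM in Col-0 and 100.4, 81.9 and 87.2 TPM in lhp1-6 with no call (adjusted p = 0.163). CER1, WSD1 and CER4 were called without Col-0 replicate 1, where MAH1 fell under the filter. Without lhp1-6 replicate 3 the adjusted p of the 4 genes ran from 0.0611 to 0.17. Guard cell and stomatal lineage markers, genes of other cells of the epidermis, had no call among 10 tested and a median change of 0.02.

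NCED3 and NAP were among the 15 genes named for the size of their fall, and 2 galactinol synthase genes and ELIP1 also fell. NCED3 (AT3G14440), the dioxygenase of abscisic acid synthesis, had levels of 22.1, 119 and 84.9 TPM in Col-0 and 3.14, 4.45 and 3.78 TPM in lhp1-6 (-3.70, SE 0.58, adjusted p = 0.0258). NAP (AT1G69490), a NAC transcription factor of leaf senescence, stood at 12.9, 35.3 and 54.7 TPM and 2.35, 2.42 and 3.41 TPM (-3.04, SE 0.48, adjusted p = 0.0265). Both were lowest in Col-0 replicate 1 among the Col-0 libraries, and both were still several times higher there than in any lhp1-6 library. Galactinol synthases make the precursor of raffinose sugars, and 2 of the 3 tested fell. GolS2 (AT1G56600) went from 318, 625 and 898 TPM to 137, 114 and 121 TPM (-2.18, SE 0.36, adjusted p = 0.0291), and GOLS3 (AT1G09350) from 18.6, 19.6 and 12.2 TPM to 5.29, 1.62 and 1.46 TPM (-2.34, SE 0.39, adjusted p = 0.0298). GolS1 (AT2G47180) stood at 15.3, 27.7 and 17.00 TPM and 9.46, 7.23 and 9.62 TPM with adjusted p = 0.0584. ELIP1 (AT3G22840), a light-stress protein that binds chlorophyll, had the largest loss in TPM of any called gene, from 648, 982 and 508 TPM to 194, 136 and 117 TPM (-2.23, SE 0.29, adjusted p = 0.0165).

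The 14 cold response genes tested had a median change of -0.81, yet only GOLS3 was called lower. COR15B (AT2G42530) missed narrowly at 62.7, 54.99 and 56.03 TPM against 20.7, 34.9 and 15.2 TPM (adjusted p = 0.0504), and RD29A (AT5G52310) did not overlap between genotypes but varied widely in lhp1-6, at 463, 529.6 and 499.8 TPM and 218, 418 and 95.4 TPM (adjusted p = 0.206). Both members that were called higher, COR27 (AT5G42900) and AT4G33980, went against the median. COR27, a cold- and clock-regulated gene, stood at 33.1, 35.04 and 46.99 TPM in Col-0 and 89.4, 128 and 92.9 TPM in lhp1-6 (1.403, SE 0.19, adjusted p = 0.0183). AT4G33980 stood at 43.8, 40.6 and 44.4 TPM and 84.9, 103 and 117 TPM (1.21, SE 0.13, adjusted p = 0.00936). GRP7 (AT2G21660), an RNA-binding protein gene of the same cold and circadian annotation, had the largest TPM gain of all called genes, from 2350.5, 2579.8 and 2842 TPM to 5324, 5376 and 5440.3 TPM (1.06, SE 0.21, adjusted p = 0.0434). Handling markers moved with these falls: all 11 wound and touch genes tested had a negative change and none was called, with a median of -0.93, and their sum was highest in Col-0 replicate 2. Without Col-0 replicate 1, 6 of the 11 were called lower and the median was -1.29, and 3 were called lower in the fit of 12 libraries. Their part in the falls was not tested. NCED3, NAP, GolS2, GOLS3 and ELIP1 were called without Col-0 replicate 1, and none of them without lhp1-6 replicate 3 (adjusted p from 0.0836 to 0.124).

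The sequences upstream of 3 of these genes are shown because they hold the motifs by which evening-phased and abscisic-acid-responsive genes are usually described. Each is the 250 bases before the annotated gene start, from RefSeq for TAIR10.1, read 5′ to 3′ on the strand of the gene, with matches in capitals: the evening element AAAATATCT, or its reverse complement, in GRP7, which rose, and the G-box CACGTG in GOLS3 and NAP, which fell. GRP7 is at chr2:9266558-9266807, minus strand, GOLS3 at chr1:3019389-3019638, plus strand and NAP at chr1:26121830-26122079, plus strand.
GRP7: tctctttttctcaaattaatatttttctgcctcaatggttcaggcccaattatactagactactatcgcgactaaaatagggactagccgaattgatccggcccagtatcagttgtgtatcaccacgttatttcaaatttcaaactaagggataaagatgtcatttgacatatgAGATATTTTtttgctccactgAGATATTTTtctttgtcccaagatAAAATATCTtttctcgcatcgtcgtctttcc
GOLS3: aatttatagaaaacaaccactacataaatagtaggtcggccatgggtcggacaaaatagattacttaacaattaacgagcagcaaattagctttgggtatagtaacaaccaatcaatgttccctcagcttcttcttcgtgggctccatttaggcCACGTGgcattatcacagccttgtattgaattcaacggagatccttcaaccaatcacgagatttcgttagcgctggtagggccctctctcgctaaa
NAP: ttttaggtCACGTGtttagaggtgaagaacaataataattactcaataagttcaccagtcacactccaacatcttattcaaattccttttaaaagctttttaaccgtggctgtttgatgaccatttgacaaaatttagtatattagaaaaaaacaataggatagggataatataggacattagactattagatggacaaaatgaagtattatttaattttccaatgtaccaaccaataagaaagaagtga
The GRP7 window held 3 evening elements. The evening element was found in 3.03% of 363 windows of genes called higher and 2.11% of 521 of genes called lower, against 2.59% of 18714 windows in all, searched on both strands. The G-box was found in 7.99% and 10.9%, against 7.70% in all. The telobox AAACCCTA and the repeat GAGAGA, both known from Polycomb response elements of plants, were found in 2.75% and 16.0% of windows of genes called higher and in 3.56% and 19.8% of all windows. A match is a run of letters and not a site known to be bound.

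Auxin repressor genes fell while a cytokinin synthesis gene rose. Aux/IAA proteins hold auxin response genes off until auxin marks them for degradation. IAA17 (AT1G04250) stood at 48.8, 76.2 and 47.7 TPM in Col-0 and 10.4, 11.4 and 12.1 TPM in lhp1-6 (-2.22, SE 0.19, adjusted p = 0.00743). IAA14 (AT4G14550) went from 2.65, 3.65 and 5.58 TPM to 0.373, 0.771 and 0.126 TPM (-1.78, SE 0.28, adjusted p = 0.0246), and IAA3 (AT1G04240) from 35.1, 45.9 and 59.2 TPM to 22.1, 24.00 and 22.2 TPM (-0.98, SE 0.18, adjusted p = 0.0408). IAA9 (AT5G65670), the most abundant of the repressors tested, stood at 375, 495 and 411 TPM and 619.8, 529 and 530.4 TPM and did not pass (adjusted p = 0.183). Of the 15 auxin response genes these 3 were the only calls, and the median was -0.17. PIN7 (AT1G23080), an auxin efflux carrier, was the only call among 10 transport genes, from 7.96, 10.4 and 7.95 TPM to 4.99, 3.89 and 4.89 TPM (-0.81, SE 0.16, adjusted p = 0.0427), while PIN3 changed by -0.01 without passing. Over all genes tested, 4.70% were called.

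On the cytokinin side, IPT3 (AT3G63110), the isopentenyltransferase known to respond to nitrate, stood at 1.38, 3.19 and 2.11 TPM in Col-0 and 5.37, 6.85 and 7.89 TPM in lhp1-6 (1.28, SE 0.24, adjusted p = 0.0408). ARR4 (AT1G10470), a type-A response regulator induced by cytokinin, stood at 76.3, 104 and 105 TPM and 152, 154 and 165 TPM (0.73, SE 0.14, adjusted p = 0.0424). ARR6 (AT5G62920) stood at 2.54, 4.64 and 5.27 TPM and 7.84, 10.9 and 9.26 TPM without passing (adjusted p = 0.0691). IPT3 and ARR4 were the 2 calls among 15 cytokinin genes, none of which was called lower, where 4.70% of all genes were called. None of 11 brassinosteroid genes and none of the 3 auxin synthesis genes that could be tested was called. Without Col-0 replicate 1 the adjusted p was at most 0.024 for the 5 of these 6 hormone genes that could be tested, and without lhp1-6 replicate 3 it ran from 0.0613 to 0.167 for all 6.

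Single genes of jasmonate, aldehyde, salicylate and ethylene metabolism were called. VSP1 (AT5G24780), a vegetative storage protein induced by jasmonate, stood at 0.176, 0.451 and 0.446 TPM in Col-0 and 5.54, 12.4 and 8.32 TPM in lhp1-6 (2.79, SE 0.28, adjusted p = 0.00903). VSP2 (AT5G24770), its neighbour and near relative, stood at 12.96, 7.89 and 29.3 TPM and 36.8, 199.7 and 234 TPM without passing (adjusted p = 0.0913), lhp1-6 replicate 1 lying close to the highest Col-0 value. LOX3 (AT1G17420), a lipoxygenase of jasmonate synthesis, fell from 13.9 ± 2.66 to 6.03 ± 0.212 TPM (-1.07, SE 0.15, adjusted p = 0.02), and HPL1 (AT4G15440), the hydroperoxide lyase of leaf aldehydes, from 18.19, 27.1 and 33.05 TPM to 2.97, 3.11 and 3.96 TPM (-2.61, SE 0.23, adjusted p = 0.00743). VSP1 and LOX3 were the only calls among 22 jasmonate genes, 1 in each direction, where 4.70% of all genes were called. MES9 (AT4G37150), an esterase known to act on methyl salicylate, rose from 6.91, 8.02 and 8.02 TPM to 46.1, 69.3 and 76.7 TPM (2.88, SE 0.20, adjusted p = 0.00375). ACS2 (AT1G01480), an enzyme of ethylene synthesis, was the 1 call among 16 ethylene genes, from 8.17, 10.4 and 15.4 TPM to 2.29, 4.05 and 3.12 TPM (-1.55, SE 0.26, adjusted p = 0.0298).

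Regulators of flowering and fruit development changed in both directions. AGL19 (AT4G22950), a flowering promoter known to be held silent by Polycomb, stood at 0.239, 0.147 and 0.0607 TPM in Col-0 and 8.84, 7.81 and 6.03 TPM in lhp1-6 (2.89, SE 0.18, adjusted p = 0.0027). PI (AT5G20240), which specifies petals and stamens, stood at 5.77, 5.42 and 6.06 TPM and 12.6, 12.7 and 13.8 TPM (1.06, SE 0.10, adjusted p = 0.00902), and SEP3 (AT1G24260), a partner of floral organ factors, at 194, 195 and 180.3 TPM and 349, 309 and 315 TPM (0.77, SE 0.09, adjusted p = 0.0151). In contrast to SEP3, its relative SEP4 (AT2G03710) fell from 81.7, 108 and 131 TPM to 44.3, 53.2 and 49.4 TPM (-1.09, SE 0.18, adjusted p = 0.0291). Of 30 type II MADS-box genes tested, 4 were called higher and 1 lower, with a median of 0.14. STM (AT1G62360), a meristem homeobox gene, fell from 34.4, 49.1 and 38.1 TPM to 16.4, 9.595 and 11.8 TPM (-1.63, SE 0.21, adjusted p = 0.0173). It was the 1 call among 13 KNOX, WOX and CUC genes, where 4.70% of all genes were called.

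Among 15 fruit patterning genes tested, 2 rose. ADPG1 (AT3G57510), a polygalacturonase of the dehiscence zone along which the fruit opens, stood at 59.5, 83.7 and 90.7 TPM in Col-0 and 301, 244 and 266 TPM in lhp1-6 (1.80, SE 0.18, adjusted p = 0.00902). SPT (AT4G36930), a bHLH factor of carpel margins, stood at 36.8, 33.4 and 36.5 TPM and 76.7, 66.7 and 57.9 TPM (0.89, SE 0.12, adjusted p = 0.0183). IND (AT4G00120) and ALC (AT5G67110), which set up the valve margin, changed by 0.36 and 0.40 with adjusted p = 0.279 and 0.223, and FUL (AT5G60910), which keeps the valve distinct from it, stood at 186, 252 and 296 TPM and 169.7, 162 and 142 TPM (adjusted p = 0.122). Apart from LHP1, none of the 17 other Polycomb group genes tested was called, with VIN3 (AT5G57380) nearest at 2.98, 1.94 and 1.74 TPM against 4.44, 4.64 and 4.198 TPM (adjusted p = 0.0635). Of the 8 regulators from AGL19 to ADPG1 and AGL44, all were called without Col-0 replicate 1 (adjusted p of at most 0.0121). Without lhp1-6 replicate 3, 7 of the 8 could be tested and none was called (adjusted p from 0.0613 to 0.123).

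A small set of genes was close to off in Col-0 fruit and on in lhp1-6 fruit. Under 1 TPM in every Col-0 library and at least 5 TPM in every lhp1-6 library, a pattern by which they were chosen, were 12 called genes, while LHP1 was the only gene with the reverse pattern. For 5 of the 12, among them a LEA dehydrin (AT2G21490), the lhp1-6 mean was higher in seed than in fruit. The other 7 were at least as high in fruit. They were AT4G05475, at 0.127, 0.2598 and 0.321 TPM in Col-0 and 14.4, 17.1 and 15.7 TPM in lhp1-6 (3.76, SE 0.14, adjusted p = 0.000616), the C2H2-like zinc finger gene AT5G54360, GATA13, AGL19, VSP1, the F-box gene AT3G47030 and the kinase gene CDG1. AT5G54360 stood at 0.0724, 0.149 and 0.0918 TPM and 10.6, 12.7 and 8.53 TPM (3.38, SE 0.17, adjusted p = 0.00165). GATA13 (AT2G28340), a GATA-type factor, stood at 0.0609, 0 and 0 TPM and 6.42, 8.01 and 6.87 TPM (2.98, SE 0.14, adjusted p = 0.00165), with 2 Col-0 libraries at 0. With any lhp1-6 library left out they fell under the filter, so their calls could not be checked against those libraries.

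F-box and leucine-rich-repeat (RNI-like) genes recurred among those switched on, a family noticed after its values were seen. F-box proteins choose substrates for ubiquitin ligases, and this family is one of the largest in the Arabidopsis genome. Of 220 tested genes with this annotation, 14 were called higher and 3 lower, 7.73% called against 4.70% of all genes, and the median of the family was 0.00. AT3G47030 stood at 0.757, 0.532 and 0.506 TPM in Col-0 and 8.098, 9.03 and 8.63 TPM in lhp1-6 (2.59, SE 0.13, adjusted p = 0.00165). AT4G05470, next to AT4G05475 on chromosome 4, was listed at 0 in all 3 Col-0 libraries and stood at 4.499, 4.22 and 6.07 TPM in lhp1-6 (2.55, SE 0.17, adjusted p = 0.00352). On chromosome 1 the neighbours AT1G66290, AT1G66300 and AT1G66310 all rose. AT1G66300 stood at 2.33, 3.36 and 2.72 TPM and 15.6, 14.2 and 11.1 TPM (1.94, SE 0.17, adjusted p = 0.00743), and AT1G66310 at 0.0443, 0 and 0 TPM and 5.29, 4.55 and 3.97 TPM (2.46, SE 0.15, adjusted p = 0.00299). AT3G47030, AT4G05470, AT4G05475, AT1G66290 and AT1G66310 were under 1 TPM in every Col-0 library. They passed the expression filter through the lhp1-6 libraries alone, so they could be seen only as rises. Without lhp1-6 replicate 3, 1 of the 6 genes named here could be tested and was not called (adjusted p = 0.0598). Reads of such close copies can be split among them by the counting.

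That trio was 1 of 4 runs of 3 neighbouring tested genes called in the same direction, beside 48 neighbouring pairs in all. Another run was CDG1, AT3G26950 and AT3G26960 on chromosome 3, which changed by 2.35, 0.46 and 0.86. The run on chromosome 4 was of thioredoxin superfamily genes. AT4G15670 stood at 1.43, 1.08 and 1.53 TPM in Col-0 and 13.3, 11.4 and 12.2 TPM in lhp1-6 (2.51, SE 0.13, adjusted p = 0.00165), AT4G15700 at 1.23, 0.6300 and 1.07 TPM and 8.25, 9.03 and 11.5 TPM (2.42, SE 0.19, adjusted p = 0.00505), and AT4G15690 at 0.265, 0 and 0.336 TPM and 2.02, 6.81 and 3.65 TPM (2.01, SE 0.35, adjusted p = 0.0343). Their class, small redox proteins that reduce disulfides, moved both ways: of 63 tested glutaredoxin and thioredoxin superfamily genes, chosen after their values were seen, 5 were called higher and 4 lower (14.3% against 4.70% of all genes). AT2G47880, a glutaredoxin gene, fell from 351, 443 and 599 TPM to 114, 62.2 and 91.5 TPM (-2.37, SE 0.28, adjusted p = 0.0126), and AT3G62960 from 265, 373 and 382 TPM to 132, 50.9 and 86.7 TPM (-1.99, SE 0.34, adjusted p = 0.0325). AT1G06830, the least abundant of the 4 that fell, stood at 4.17, 5.82 and 6.38 TPM in Col-0, above the Col-0 level of each of the 5 that rose. The remaining run is that of the pollen genes described below.

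**Figure D4:**
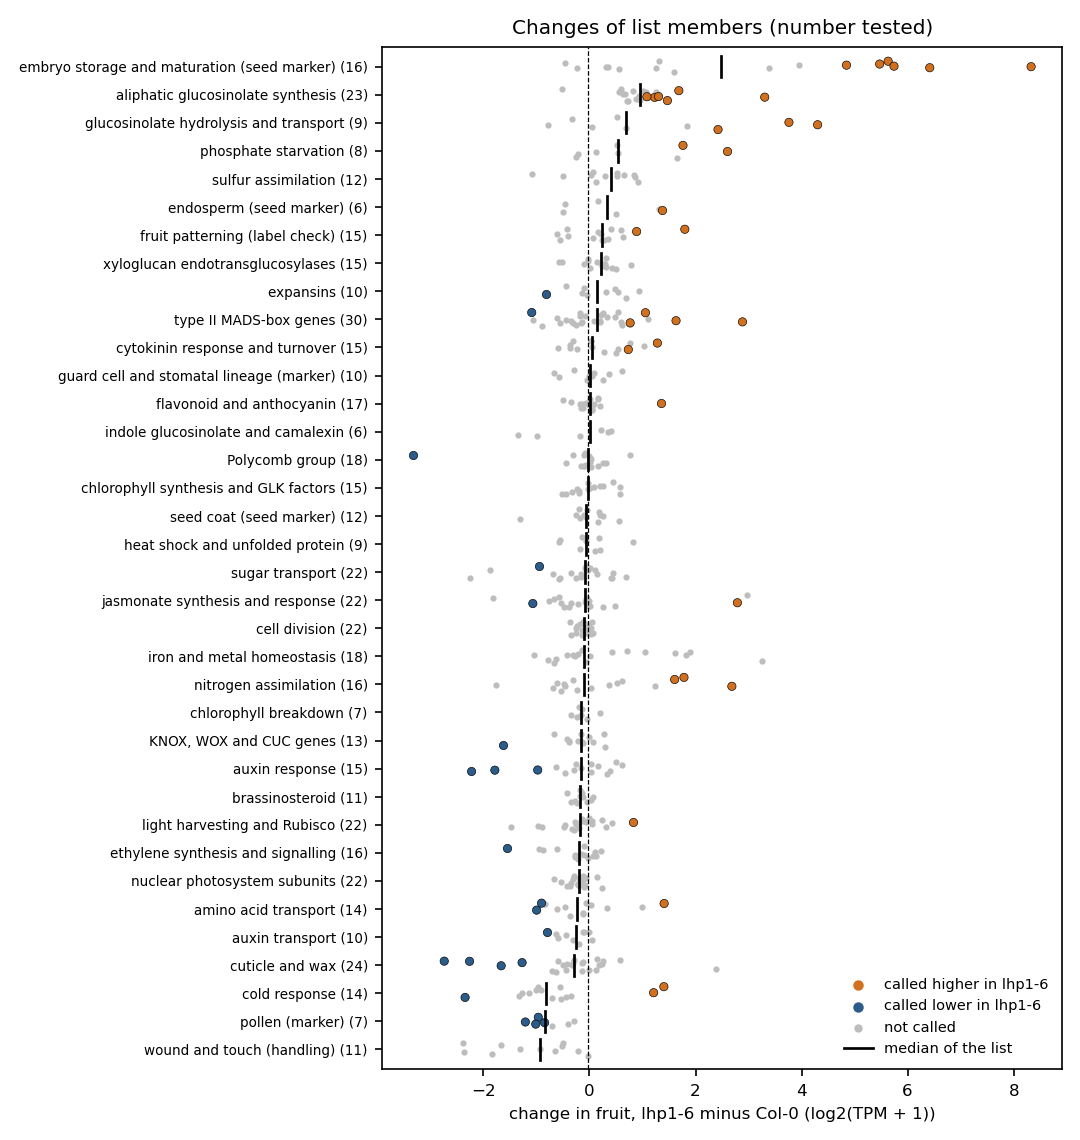
Change in fruit (lhp1-6 minus Col-0, log2(TPM + 1)) of each tested member of the 36 gene lists with 5 or more tested members, ordered by the list's median (black bar), with members called higher in orange, called lower in blue and not called in grey, and a dashed line at the median of all genes. Storage genes lie farthest right with 6 of 16 called, aliphatic glucosinolate genes have 22 of 23 members right of 0, and all 11 wound and touch genes lie at or left of 0 with none called.

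Of the transport genes, 5 are described here because they were called. UMAMIT14 (AT2G39510), an amino acid exporter of the vasculature that feeds seeds, rose from 20.3, 16.3 and 22.9 TPM to 51.4, 52.1 and 58.2 TPM (1.41, SE 0.14, adjusted p = 0.00902). UMAMIT11 (AT2G40900), of the same family, fell from 62.9, 95.9 and 109 TPM to 42.4, 44.5 and 42.5 TPM (-0.996, SE 0.20, adjusted p = 0.0463), and LHT1 (AT5G40780), an amino acid importer, from 49.01, 69.4 and 74.3 TPM to 36.1, 31.9 and 32.2 TPM (-0.90, SE 0.17, adjusted p = 0.0374). No other gene was called among 14 amino acid transporters. CWINV2 (AT3G52600), a cell wall invertase, was the 1 call among 22 sugar transport genes, where 4.70% of all genes were called, from 10.9, 10.9 and 11.95 TPM to 6.17, 4.19 and 5.798 TPM (-0.95, SE 0.15, adjusted p = 0.0265). SWEET11 (AT3G48740) and SWEET12 (AT5G23660), sucrose exporters, changed by 0.42 and 0.41 (adjusted p = 0.142 and 0.0678). PIP2A (AT3G53420), an aquaporin, fell from 587 ± 38.4 to 372 ± 41.1 TPM (-0.66, SE 0.12, adjusted p = 0.0405).

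Photosynthesis and cell division showed almost no calls. None of 22 nuclear photosystem genes, none of 15 chlorophyll synthesis genes and none of 22 cell division genes was called, with medians of -0.20, -0.03 and -0.09. Of 22 light harvesting and Rubisco genes only RBCS1B (AT5G38430), a small subunit gene with near-identical copies, was called, at 405, 469 and 351 TPM in Col-0 and 644, 715 and 808 TPM in lhp1-6 (0.82, SE 0.15, adjusted p = 0.0398). Of the photosystem genes, 20 of 22 had a negative change that did not pass, PSAH1 (AT3G16140) the nearest to a call at 676, 673 and 752 TPM against 453, 457 and 546 TPM (adjusted p = 0.073). A call that was missed does not show that levels were the same. Iron genes had no call among 18, although NAS1 (AT5G04950), nicotianamine synthase, stood at 9.0, 0.475 and 0.907 TPM in Col-0 and 25.9, 44.5 and 19.2 TPM in lhp1-6 (adjusted p = 0.0627).

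The genes with the largest changes also included several of little-known function. AT2G05540, a glycine-rich protein gene, rose from 29.8, 11.5 and 27.4 TPM to 266, 384 and 321 TPM (3.85, SE 0.35, adjusted p = 0.00781). AT3G59845, a zinc-binding dehydrogenase gene, fell from 179, 237 and 192 TPM to 33.8, 14.8 and 18.9 TPM (-3.19, SE 0.29, adjusted p = 0.00781). The cupin genes AT5G39150 and AT5G39180 fell from 86.9 ± 20.4 to 10.7 ± 3.54 TPM and from 83.7 ± 18.6 to 10.6 ± 3.24 TPM, but these near-identical copies can share reads and count as 1 observation. AT4G10290, another cupin gene, went from 8.797, 19.9 and 13.1 TPM to 1.32, 1.12 and 1.38 TPM (-2.65, SE 0.27, adjusted p = 0.00932). A class chosen after its values were seen held the 38 tested genes whose annotation contains RmlC-like or germin. Of these, 3 were called higher and 7 lower (26.3% called, against 4.70% of all genes). The class is mixed: CRU1 among those that rose is a storage protein, and DOG1 is a dormancy gene and not a cupin. CYP81D8 (AT4G37370), a cytochrome P450 gene, fell from 19.2, 30.6 and 34.9 TPM to 3.89, 5.14 and 2.95 TPM (-2.53, SE 0.26, adjusted p = 0.00932), and PRP2 (AT2G21140), a proline-rich wall protein gene, from 12.2, 19.7 and 7.46 TPM to 1.25, 0.874 and 1.34 TPM (-2.63, SE 0.32, adjusted p = 0.0148). Of the 30 genes named by size, 28 could be tested without Col-0 replicate 1 and all 28 were called. Without lhp1-6 replicate 3, 24 could be tested and none was called.

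The effect of lhp1-6 in fruit was set against its effect in seed. The difference passed its own test for 249 of the 364 genes called higher in fruit and 201 of the 521 called lower, where 6.03% of all genes passed. A gene chosen for a call in fruit is more likely to show such a difference, so these counts are a description. Of the 30 genes named by size, also chosen for a fruit mean at or above the seed mean, 28 passed, and TGG1 and AT4G23610 were the exceptions. With fruit and seed libraries of the same number paired, 5 of the 28 lost the call. Seed values of most of these genes were low, with a mean of 0 and 0 TPM for MYB29, 0.0445 and 0.03401 TPM for WSD1 and 0.196 and 0.355 TPM for AT5G03545 in Col-0 and lhp1-6 seed. Over all genes, 1135 effects differed between the tissues, 786 of them more positive in fruit, and 503 passed with fruit and seed libraries of the same number kept together as pairs. Of the genes called in fruit, 75 of 364 and 179 of 521 were also called in the same direction in seed in the fit of 12 libraries, and 11 and 7 in the opposite direction. SEP4 was of the latter kind, changing by -1.09 in fruit and 0.92 in seed, and SEP3 was the reverse, at 0.77 and -0.81.

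**Figure D5:**
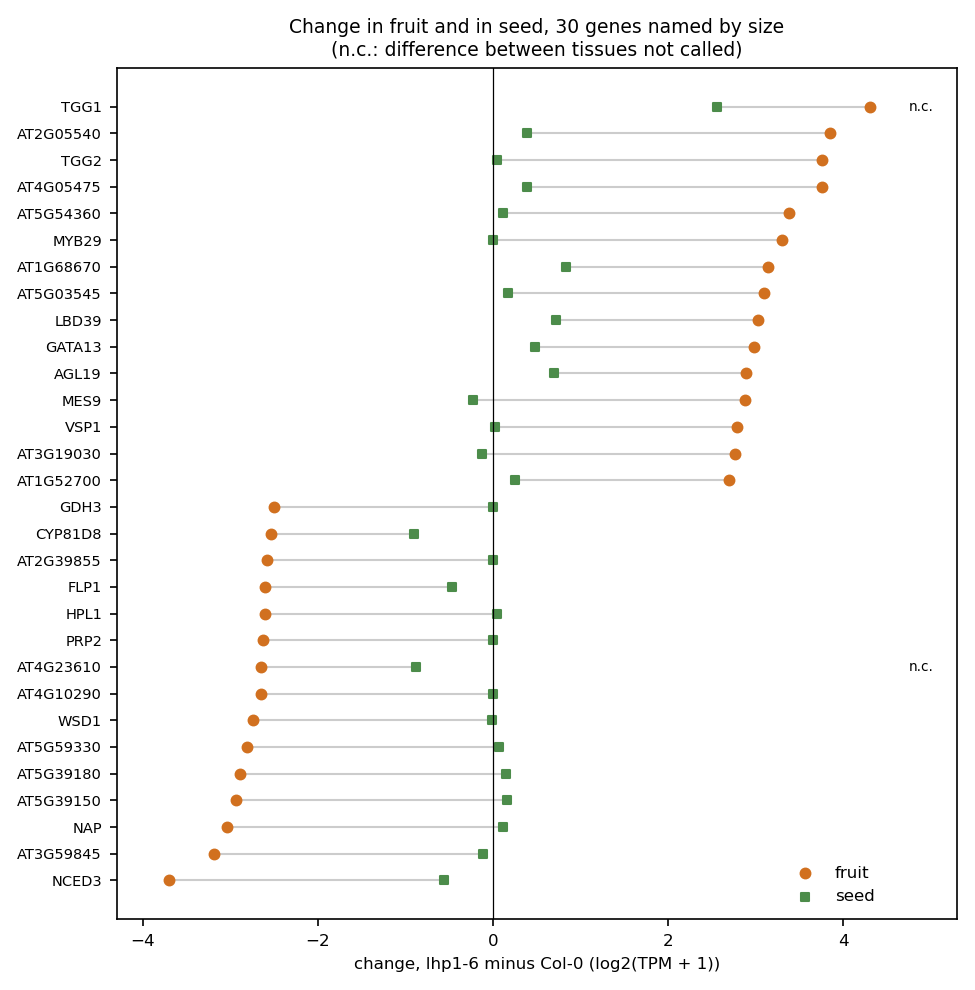
Change in fruit (orange circles) and in seed (green squares), lhp1-6 minus Col-0 in log2(TPM + 1), from the fit of 12 libraries, for the 30 genes named by size, with a grey line joining the pair and n.c. where the difference was not called. Fruit changes lie beyond 2.5 in size, while seed changes lie between -0.90 and 0.83 for all but TGG1, whose seed change is 2.56.

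Pollen genes were lower in lhp1-6 fruit. Of 7 tested pollen markers 4 were called lower and none higher, all 7 had a negative change, and the median was -0.85. Their sum was 280.2 to 329 TPM in Col-0 and 138.0 to 169 TPM in lhp1-6, with no overlap. In the seed libraries the sum was 17.3 to 54.4 TPM in Col-0 and 3.28 to 6.24 TPM in lhp1-6. VGD1 (AT2G47040), a pectin methylesterase of pollen tubes, stood at 114, 137 and 114 TPM in Col-0 and 62.4, 52.2 and 64.8 TPM in lhp1-6 (-1.01, SE 0.12, adjusted p = 0.0148). VGDH1 (AT2G47030), its neighbour and near copy, fell from 66.5 ± 6.53 to 33.7 ± 3.798 TPM (-0.96, SE 0.12, adjusted p = 0.0151). AT2G47050 beside them, not on the marker list, is annotated with the plant invertase and pectin methylesterase inhibitor superfamily. It fell from 63.2 ± 5.07 to 38.05 ± 5.79 TPM (-0.73, SE 0.13, adjusted p = 0.0369). AT5G45880, annotated with pollen allergens, stood at 83.5, 94.5 and 99.5 TPM and 55.3, 47.3 and 50.5 TPM (-0.85, SE 0.10, adjusted p = 0.0148). TIP5-1 (AT3G47440), the other marker called, stood at 4.24, 5.32 and 7.99 TPM and 1.60, 1.57 and 2.61 TPM (-1.21, SE 0.25, adjusted p = 0.0485). In the fit of 12 libraries the fruit changes of VGD1, AT2G47050 and AT5G45880 were not called (adjusted p = 0.0695, 0.124 and 0.133). The same fit called these genes lower in seed, with changes of -2.11, -1.34 and -2.01, and VGDH1 with -1.87 (adjusted p = 0.00622, 0.0199, 0.0085 and 0.00384). Whether the amount of pollen on or in the fruits took part in these falls was not tested. All 124 tested genes annotated with pectin, a class picked after its values were seen, held 18 called lower and 6 higher (19.4% called, against 4.70% of all genes), VGD1, VGDH1 and AT2G47050 among them.

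Seed storage genes rose most of all, in libraries that differed in seed RNA. In CRU3 (AT4G28520), which encodes a cruciferin, Col-0 libraries held 2.88, 0.571 and 0.415 TPM and lhp1-6 libraries 903, 436 and 723 TPM (8.33, SE 0.44, adjusted p = 0.00165). SESA1 (AT4G27140), an albumin gene, stood at 10.8, 0.601 and 0.637 TPM and 441, 187 and 230.5 TPM (6.42, SE 0.81, adjusted p = 0.0155). Of 16 storage and maturation genes, 6 were called higher and none lower. Col-0 fruit replicate 1 was the highest Col-0 library for each of these 6, and still below every lhp1-6 library. The 16 genes summed to 570.3 to 4153 TPM in Col-0 fruit, 7614 to 11116 TPM in lhp1-6 fruit, 11597 to 18612 TPM in Col-0 seed and 44652 to 116359 TPM in lhp1-6 seed, so their sum was also higher in every lhp1-6 seed library than in any of Col-0. When the estimated seed share was taken off the fruit libraries, 4 of the 6 could be tested and none was called, with changes of 3.62 for CRU1, 3.29 for CRU2, 3.11 for SESA1 and 3.51 for SESA2 (adjusted p = 0.393, 0.347, 0.330 and 0.405). The genes of the other 15 groups for which this was computed were all called, and the part of seed RNA in the rise of the storage genes was not tested further. Of the remaining seed tissues, 1 of 6 endosperm genes, IKU2 (AT3G19700), was called higher, at 2.04, 2.06 and 2.11 TPM against 9.16, 5.06 and 7.003 TPM (1.36, SE 0.20, adjusted p = 0.0224), and none of 12 seed coat genes was called. The mean of IKU2 in seed was 0 TPM in Col-0 and 0.00507 TPM in lhp1-6, so it did not mark seed RNA in these data. Endosperm genes summed to 34.0 to 301 TPM in Col-0 fruit and 110.3 to 223 TPM in lhp1-6 fruit, and seed coat genes to 564 to 1400.2 TPM and 665 to 815 TPM, with Col-0 replicate 1 the highest library in both.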

How the data were processed

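RNA of 12 libraries of Arabidopsis thaliana, 3 each of Col-0 fruit, lhp1-6 fruit, Col-0 seed and lhp1-6 seed, was sequenced on DNBSEQ as 100 bp paired ends, 25 M reads or more a library, per the labels' protocols. The deposited values are TPM per gene, made by the authors; cutadapt 1.9.1, STAR 2.5, featureCounts and TAIR10 are named in the submitters' processing notes. Strand use in counting is not stated there, which leaves overlapping and antisense genes uncertain. TPM keep no depth, so the depth behind a value is unknown and no counting interval is given.

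The test was limma (3.58.1, run under R 4.3.3), applied to genes that reached 1 TPM in 3 or more of the 6 fruit libraries. Values were log2-transformed after adding a pseudocount of 1, which understates the change of low genes, with moderated variances following the mean and Benjamini-Hochberg adjustment over all genes tested. The threshold was 0.05. The fruit fit held the 6 fruit libraries, and the difference between tissues was an interaction term over all 12. The fit was tested on simulated data with noise drawn separately for each gene and library. Differences in seed RNA between libraries were not simulated, so the test does not cover them. Seed share is percentile 1 of the ratio of a fruit library to the mean of the same genotype's seed, over genes at 50 TPM or more in each of those seed libraries, storage and other seed marker lists left out. Gene names and promoters are from RefSeq for TAIR10.1.

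Members, gene lists and tests were chosen with earlier results of these data known. Named genes were LHP1 and its neighbours, the 15 largest changes in each direction among called genes with no overlap, 5 TPM or more on average in the higher genotype and a fruit mean at or above the seed mean, up to 8 genes per direction that were off in 1 genotype, and up to 4 members per list by adjusted p; others were named after their values were seen. Fruit and seed libraries of the same number came from the same siliques, so the paired value is given beside the test between tissues. Their deviations correlated at r from 0.12 to 0.32, which does not show that they moved as pairs. Fruit and seed libraries of different number were not compared, and fruit libraries of different number and genotype reached r = 0.34. Alternatives were other pseudocounts, filters, scalings and variance models, the replicate block, each library left out, the 12-library fit, seed share taken off, and, added after seeing the data, that together with leaving out Col-0 fruit replicate 1. Some items are not reported here.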

Additional observations from a re-analysis of the deposited data

Results flagged for a closer look

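The effect of lhp1-6 differed between fruit and seed for 82 genes, by the interaction test in limma at an adjusted p under 0.05. They are taken from the genes named by size, LHP1, named genes with a called seed effect opposite to the fruit change, and the other genes described above. Values in parentheses are the fruit effect minus the seed effect in log2(TPM + 1).

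Among genes named for the size of their change, the difference was positive for AT1G52700 (2.44), AT1G68670 (2.31), AT2G05540 (3.46), GATA13 (2.5), AT3G19030 (2.90), AT4G05475 (3.37), AGL19 (2.19), MES9 (3.11), LBD39 (2.3), AT5G03545 (2.92), MYB29 (3.3), VSP1 (2.77), TGG2 (3.72) and AT5G54360 (3.26). It was negative for NAP (-3.16), PRP2 (-2.62), AT2G39855 (-2.58), GDH3 (-2.5), NCED3 (-3.14), AT3G59845 (-3.08), AT4G10290 (-2.65), HPL1 (-2.66), FLP1 (-2.13), CYP81D8 (-1.63), WSD1 (-2.72), AT5G39150 (-3.10), AT5G39180 (-3.04) and AT5G59330 (-2.88). LHP1 differed by 0.76, since its level fell by 3.32 in fruit and by 4.08 in seed.

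Opposite directions in the tissues were seen for SEP3 (1.58), SEP4 (-2.01), XTH27 (1.0), NAC2 (1.52), SHP1 (0.97), SWEET12 (0.99) and VIN3 (1.37). Of these, SEP3, SEP4 and NAC2 were called in fruit, with fruit and seed effects of 0.77 and -0.81 for SEP3 and -1.09 and 0.92 for SEP4 and 1.01 and -0.51 for NAC2, while the fruit effects of XTH27, SHP1, SWEET12 and VIN3 did not pass.

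Among the other genes described above, the difference was positive for NRT2.1 (1.78), NIA2 (1.78), FMOGS-OX1 (1.18), AT1G66290 (1.39), AT1G66300 (1.67), AT1G66310 (2.37), AGL44 (0.98), NIR1 (2.98), SPX2 (0.71), PHT1-4 (2.66), UMAMIT14 (1.62), GSTF11 (1.26), PAP17 (1.42), GLN1-3 (0.95), IKU2 (1.36), CDG1 (2.32), AT3G26950 (0.55), AT3G26960 (0.76), AT3G47030 (2.43), LBD38 (1.82), ADPG1 (1.75), IPT3 (1.27), AT4G05470 (2.46), AT4G15670 (2.37), AT4G15690 (1.93), AT4G15700 (2.33), AT4G33980 (0.92), SPT (1.08), NAS1 (3.24), COR27 (1.17) and ARR6 (1.14). It was negative for ACS2 (-1.40), CER1 (-1.86), IAA3 (-0.95), IAA17 (-2.19), AT1G06830 (-1.93), GOLS3 (-2.29), PIN7 (-0.83), GolS2 (-2.69), MAH1 (-1.66), STM (-1.41), AT2G47880 (-2.37), PSAH1 (-0.66), AT3G62960 (-1.53), IAA14 (-1.68) and AT5G17680 (-0.73).

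With fruit and seed libraries of the same number paired, 62 of the 82 differences were called and 20 were not. Of the genes named by size, 5 were among the latter, namely GDH3 (adjusted p = 0.0553), NCED3 (adjusted p = 0.0586), FLP1 (adjusted p = 0.0772), LBD39 (adjusted p = 0.0572) and TGG2 (adjusted p = 0.0528). No cause of these differences was tested.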

How the results depend on the processing

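All 792 called genes that could be tested with each fruit library left out kept their direction. That was fixed in advance, because no called gene overlapped between genotypes. No named gene changed sign under an alternative run while being called in either fit. Counts of calls moved widely. The 364 genes called higher became 891 with the seed share taken off, 600 with that and without Col-0 replicate 1, 1167 in the fit of 12 libraries, 221 with a change of at least 1 log2 unit, and 6 to 1231 with 1 library left out. The 521 called lower became 320 under quantile normalisation, 1088 with the seed share taken off, 1041 with that and without Col-0 replicate 1, 1875 in the fit of 12 libraries, 222 with at least 1 log2 unit, and 1 to 1489 with 1 library left out. Quantile normalisation called 363 higher and 320 lower, 53.1% higher against 41.1%. The 1135 differences between fruit and seed became 756 under quantile normalisation, 2971 with the seed share taken off, 3104 with that and without Col-0 replicate 1, and 684 to 3881 with 1 library left out. The causes were not tested. Other pseudocounts, filters, variance models and median-of-ratios scaling kept each count of higher and lower genes within 1.5 times.

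With the replicate number as a block, 3 genes were called higher and 0 lower in fruit (the unblocked limma fit has 4040 genes at an unadjusted p under 0.05), and 503 differences between tissues passed. Same-numbered Col-0 and lhp1-6 fruit libraries did not deviate together (r = -0.25, -0.41 and 0.06), so the number does not pair the genotypes. With 3 libraries a genotype and unknown depth, a missed call does not show equal levels.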
